A study of Mus musculus with 6 samples.

Results

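The genes described here are 10 macrophage markers, chosen by symbol from the 18444 genes listed in the liver libraries of the series. All 10 were listed in every library. Adgre1 and Cd68 mark macrophages in general, Clec4f, Timd4 and Marco mark the resident macrophages of the liver (Kupffer cells), and Trem2, Gpnmb, Lgals3, Spp1 and Itgax mark scar- and lipid-associated macrophages. The members were picked by name, with earlier results of these data known.

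The series held 6 RNA libraries from whole liver of male C57BL/6 mice, 1 library for each condition, and the labels give an age of 6 to 8 weeks. The methods give 6 to 8 weeks for the mice used in the models, and the age when livers were taken was not stated. In the diet model, mice received a standard chow diet (SD), a high fat diet (HFD), or HFD with JT003, a peptide agonist of both adiponectin receptors, and the study's methods give 16 weeks of feeding with daily intraperitoneal JT003 at 0.5 mg/kg over 4 weeks. In the CCl4 model, mice received corn oil, the toxin CCl4 in corn oil, or CCl4 with JT003, with injections every 3 days over 6 weeks and JT003 over 3 weeks. The HFD library is labelled as steatohepatitis; the methods describe both an HFD model and a steatohepatitis model with a methionine- and choline-deficient diet added in the last 4 weeks, and which of them gave the library was not stated. The methods give 6 mice per group, and whether a library was 1 mouse or a pool was not stated. With 1 library per condition no difference below has a replicate check, and a test here sets 1 library against another, not condition against condition.

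Kupffer cells are self-renewing macrophages that line the liver sinusoids and clear particles, dying cells and bacteria from portal blood. When the liver is injured, blood monocytes enter it and become macrophages, and those found beside scars or lipid-laden hepatocytes carry TREM2, GPNMB, galectin-3 and osteopontin. A fall in Kupffer cell markers with a rise in scar-associated markers is a known feature of steatohepatitis and toxic fibrosis. In bulk liver RNA, fewer cells of a type and less RNA per cell cannot be told apart.

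The libraries held 19374236 to 20184557 expected counts. Albumin was the most abundant gene in each of the 6 libraries, with 5.29% to 7.62% of the counts, as for liver tissue. A gene was called when its log2 ratio was at least 1 in size and the exact binomial test of its counts in the 2 libraries passed an adjusted threshold of 0.001 over all genes tested. FPKM (fragments per kilobase of transcript, scaled to the size of the library) was used to compare levels between genes, and expected counts were used for ratios between libraries. Intervals are at 95% and cover counting error only.

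The plot of marker levels shows each member in each library. Per transcript length, Spp1, which encodes the secreted matrix protein osteopontin, had the highest level of the scar-associated markers in every library, from 13.07 FPKM with HFD plus JT003 to 95.07 FPKM with CCl4 plus JT003. Clec4f, a galactose-binding lectin of Kupffer cells, ranged from 8.79 FPKM in the corn oil library to 46.08 FPKM with HFD plus JT003. Itgax, the integrin chain CD11c, was low throughout, from 0.15 FPKM with corn oil to 0.95 FPKM with CCl4.

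**Figure D1:**
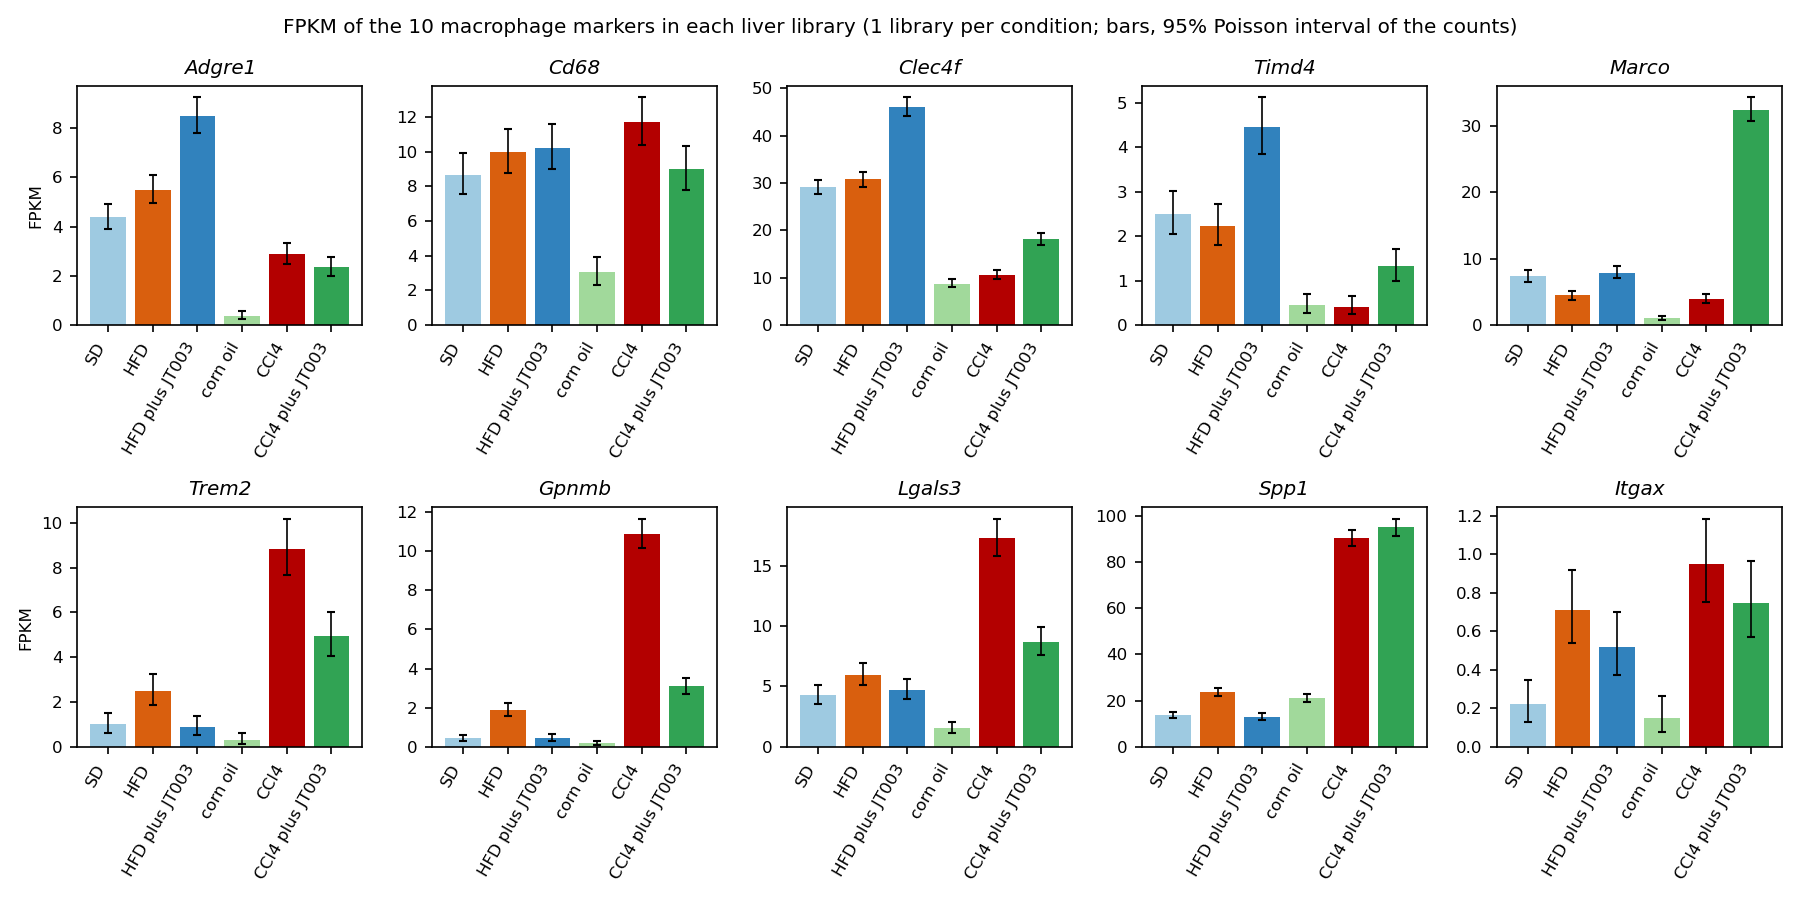
FPKM (y axis, each panel with its own scale from 0) of the 10 markers in the 6 liver libraries (x axis), with bars for 95% Poisson intervals of the counts. Trem2 and Gpnmb were highest in the CCl4 library, at 8.85 and 10.89 FPKM, whereas Clec4f and Timd4 were highest with HFD plus JT003, at 46.08 and 4.45 FPKM.

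To show the sequence just before the start sites of members that moved in different directions, the 250 bases upstream are given for Trem2, Gpnmb and Itgax, for the general marker Cd68 and for the Kupffer cell marker Clec4f. They come from RefSeq on GRCm38.p6, which held 9 of the 10 members (Adgre1 was not among them). The deposited values were made on mm9 and carry no coordinates. Capitals mark AP-1 motifs (TGANTCA, read on both strands). Trem2 lies on the plus strand at chr17:48346151-48346400, Gpnmb on the plus strand at chr6:49036268-49036517, Itgax on the plus strand at chr7:128129300-128129549, Cd68 on the minus strand at chr11:69666171-69666420 and Clec4f on the minus strand at chr6:83656117-83656366.
Trem2: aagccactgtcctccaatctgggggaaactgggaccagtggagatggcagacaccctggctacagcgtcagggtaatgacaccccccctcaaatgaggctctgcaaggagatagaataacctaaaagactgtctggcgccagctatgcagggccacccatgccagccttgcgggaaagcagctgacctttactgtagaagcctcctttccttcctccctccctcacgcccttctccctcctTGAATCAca
Gpnmb: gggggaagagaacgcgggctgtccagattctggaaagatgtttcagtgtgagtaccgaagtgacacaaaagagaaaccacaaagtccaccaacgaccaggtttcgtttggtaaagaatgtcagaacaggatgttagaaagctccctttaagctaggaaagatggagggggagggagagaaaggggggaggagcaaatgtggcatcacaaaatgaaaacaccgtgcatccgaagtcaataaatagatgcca
Itgax: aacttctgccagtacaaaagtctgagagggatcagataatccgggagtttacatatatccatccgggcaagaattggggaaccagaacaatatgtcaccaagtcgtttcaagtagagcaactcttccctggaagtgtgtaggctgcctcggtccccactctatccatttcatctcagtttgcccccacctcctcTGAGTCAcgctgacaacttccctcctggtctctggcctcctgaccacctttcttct
Cd68: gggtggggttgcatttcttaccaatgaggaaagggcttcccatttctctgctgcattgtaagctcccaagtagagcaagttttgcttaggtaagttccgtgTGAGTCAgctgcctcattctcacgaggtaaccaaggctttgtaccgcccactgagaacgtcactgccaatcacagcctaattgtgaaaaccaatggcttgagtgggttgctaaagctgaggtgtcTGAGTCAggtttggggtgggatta
Clec4f: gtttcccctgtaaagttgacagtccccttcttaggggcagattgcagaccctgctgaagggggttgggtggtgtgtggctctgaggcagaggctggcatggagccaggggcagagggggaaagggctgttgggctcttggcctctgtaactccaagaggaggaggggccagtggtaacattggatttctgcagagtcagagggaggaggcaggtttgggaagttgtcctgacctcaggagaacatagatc

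A search for TGANTCA found 1 match in Trem2, 9 bases upstream of the start, 1 in Itgax, 56 bases upstream, and a pair in Cd68, 149 and 24 bases upstream. Of 32851 mouse promoter windows of the same length, 6.75% held this motif. Gpnmb, Clec4f, Timd4, Marco and Lgals3 held none of the motifs searched, which were also the PU.1 motif GAGGAAGT (in 2.44% of windows), the E-box CACGTG (6.02%) and the TATA box TATAAA (12.4%). Spp1 held a PU.1 motif 113 bases upstream and TATAAA 211 bases upstream of the start nearest its 5′ end. These are matches of letters, and binding was not measured.

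The first comparison asked what the HFD library showed against SD. Gpnmb, a lysosomal glycoprotein of lipid-laden macrophages, and Itgax rose, while Clec4f and Adgre1 stayed within 0.20 of 0 on the log2 scale. Of the 10 members, 2 were called higher and 0 lower, beside 5.38% of all genes tested called (2.92% higher and 2.46% lower). The 5 scar-associated markers had a median log2 ratio of 1.11 and the 3 Kupffer cell markers one of -0.28, beside 0.00 over all genes tested.

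Gpnmb had 33 counts with SD, 144 with HFD and 34 with HFD plus JT003. The HFD library stood above the others of the diet model, which differed by 1 count. The log2 ratio of HFD over SD was 1.97 (1.48 to 2.63), and that of HFD plus JT003 over HFD was -2.04 (-2.69 to -1.56).

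Trem2, a lipid-sensing receptor of macrophages, was also highest in the HFD library of this model, with fewer counts than Gpnmb, namely 22 with SD, 53 with HFD and 19 with HFD plus JT003. Its log2 ratio of HFD over SD was 1.11 (0.44 to 1.97) and was not called. Its fall with JT003 was called, with a log2 ratio of -1.41 (-2.34 to -0.72). Trem2 and Gpnmb were the 2 of 10 members called in HFD plus JT003 over HFD, where 1.63% of all genes were called (0.743% higher and 0.884% lower).

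Itgax had 18 counts with SD, 57 with HFD and 42 with HFD plus JT003. It rose in HFD over SD with a log2 ratio of 1.48 (0.79 to 2.42). Its ratio of HFD plus JT003 over HFD was -0.44 (-1.07 to 0.14), an interval that includes 0, so Itgax was not shown to be lower with JT003.

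Spp1 and Lgals3, which encodes galectin-3, gave smaller differences in the diet model. Spp1 had 398 counts with SD, 670 with HFD and 370 with HFD plus JT003, with a log2 ratio of HFD to SD of 0.66 (0.48 to 0.84). The ratio after JT003 was -0.88 (-1.07 to -0.69). Lgals3 had 120, 162 and 129 counts in the same order. Neither gene was called, although the Spp1 intervals excluded 0 in each comparison.

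The Kupffer cell markers were ordered otherwise, with their highest values in the HFD plus JT003 library. Clec4f had 1418 counts with SD, 1466 with HFD and 2207 with HFD plus JT003. Timd4, a receptor for phosphatidylserine on dying cells, had 110, 96 and 193 counts in that order. Marco, a scavenger receptor that binds bacteria and particles, had 295, 176 and 313 counts.

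For HFD plus JT003 over HFD, the log2 ratios were 0.57 (0.47 to 0.66) for Clec4f, 0.97 (0.62 to 1.35) for Timd4 and 0.80 (0.54 to 1.08) for Marco. All 3 intervals lay above 0 and none of the 3 genes reached the 2-fold threshold. Adgre1, which encodes the adhesion receptor F4/80, had 290, 356 and 553 counts, and JT003 over HFD gave 0.61 (0.42 to 0.81) on the log2 scale. Cd68, a lysosomal glycoprotein, had 219, 247 and 251 counts and a ratio of 0.00 (-0.26 to 0.26).

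Against SD, none of the 10 members was called in the HFD plus JT003 library, beside 5.93% of all genes tested (3.16% higher and 2.76% lower). Gpnmb had a log2 ratio of -0.07 (-0.81 to 0.67) and Trem2 one of -0.30 (-1.29 to 0.63). Itgax was at 1.03 (0.28 to 1.99). When a biological coefficient of variation of 0.2 was assumed in place of counting error alone, 0 members were called in HFD over SD or in HFD plus JT003 over HFD. Of all genes, 179 and 19 were called in these comparisons.

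**Figure D2:**
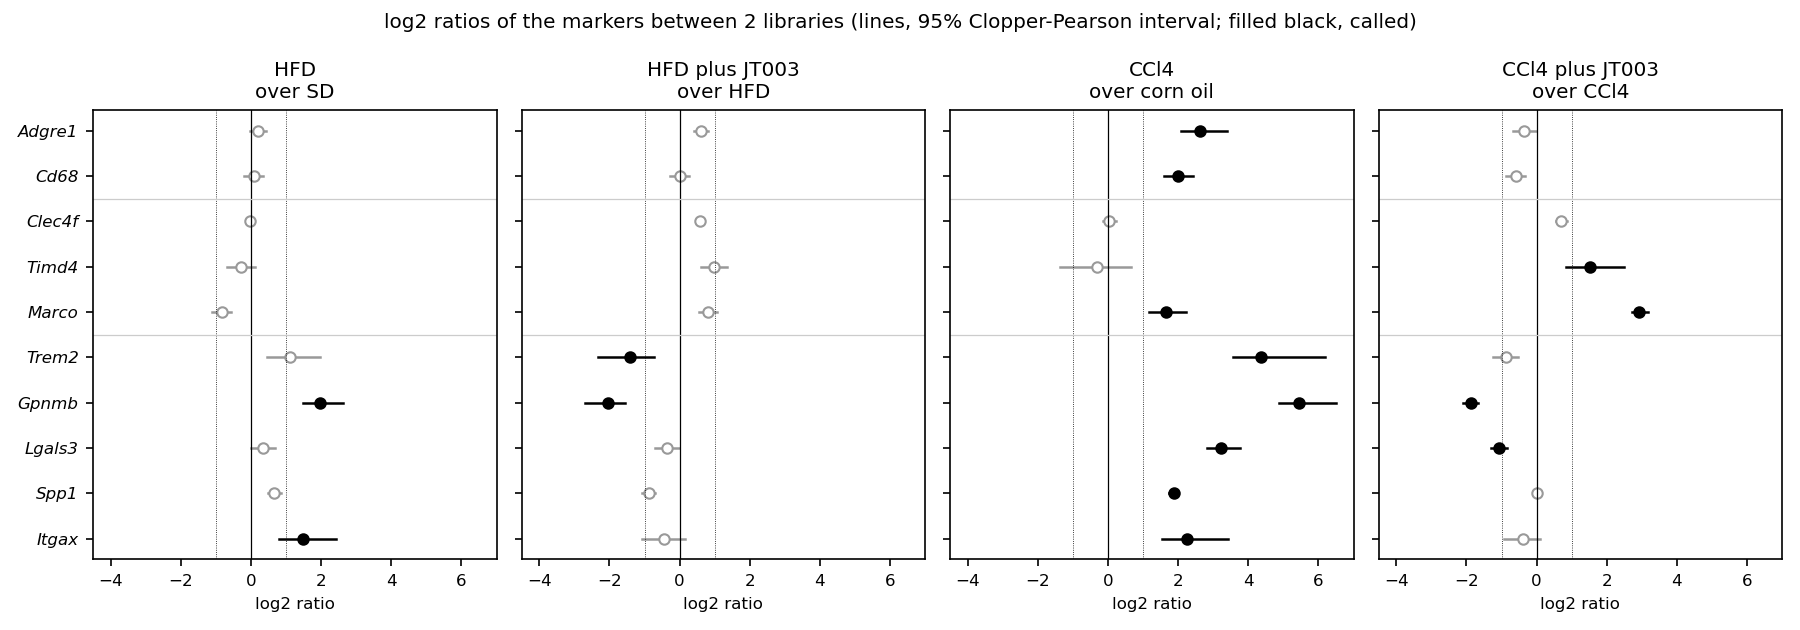
Log2 ratios (x axis) of the 10 markers (rows) between 2 libraries in the 4 main comparisons, with lines for 95% Clopper-Pearson intervals. Filled black points were called and dotted lines mark the log2 threshold of 1. The 5 scar-associated markers in the lower rows were called higher in CCl4 over corn oil, from 1.87 to 5.45.

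Other genes of these cell types were read from fixed lists. Among 18 other scar- and lipid-associated macrophage genes, 3 were called higher and 3 lower in HFD over SD (median log2 ratio 0.09). Mmp12, a macrophage elastase, had 9 counts with SD, 156 with HFD and 38 with HFD plus JT003, and was called higher in HFD over SD and lower in HFD plus JT003 over HFD. Clec7a, a receptor for fungal glucans, rose from 70 to 173 counts. Fabp5, a fatty acid binding protein, fell from 951 to 197 counts and Cd9, a tetraspanin, from 582 to 235, so the list did not move in 1 direction.

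Of 12 monocyte genes, 3 were called higher in HFD over SD, (median log2 ratio 0.90), and 0 were called in HFD plus JT003 over HFD (median 0.01). Ccr2, the receptor that guides monocytes to CCL2, had 19 counts with SD, 64 with HFD and 57 with HFD plus JT003. Cx3cr1, the fractalkine receptor, had 14, 59 and 58 counts. Thus Gpnmb and Trem2 were lower with JT003 while these monocyte markers had similar counts in both libraries; the difference between the genes was not tested.

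Of 7 genes for macrophage growth and recruitment factors, 5 had counts to test in HFD over SD, and 2 of these were called higher. In HFD plus JT003 over HFD, 6 were tested and 0 were called. Csf1, the growth factor of macrophages, had 143 counts with SD, 319 with HFD and 341 with HFD plus JT003. Ccl2, the other gene called higher, had 3, 45 and 17 counts. Its log2 ratio of HFD plus JT003 over HFD was -1.33 (-2.33 to -0.59), which was not called. Among 11 other Kupffer cell genes, 10 had a higher value with HFD plus JT003 than with HFD (median 0.53), and 1 was called, Id3, a transcriptional regulator needed by Kupffer cells, with 1681 counts with SD, 472 with HFD and 1088 with HFD plus JT003. Of 15 other pan-macrophage genes, 0 were called in either comparison, with medians of 0.06 and 0.21.

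Markers of other tissues were not level across the diet model. Of 4 adipocyte markers, 3 were listed, and these summed to 3 counts with SD, 455 with HFD and 166 with HFD plus JT003. Of these counts, Cfd, an adipocyte serine protease, gave 2, 454 and 166. Adipoq, the adipocyte hormone adiponectin, was at 0 counts in all 3 libraries. Of 7 stellate cell and myofibroblast genes, 2 were called higher and 0 lower in HFD over SD, and 1 was called lower with JT003. Col1a1, a collagen chain made by these cells, had 178 counts with SD, 899 with HFD and 343 with HFD plus JT003, so like Gpnmb it was called higher with HFD and lower with JT003. The part of these cells in the marker values was not tested.

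In the CCl4 model, the question was how the toxin library compared with its corn oil control. Of the 10 members, 8 were called higher and 0 lower, beside 7.18% of all genes tested (4.76% higher and 2.41% lower). All 5 scar-associated markers were called higher, with a median log2 ratio of 3.22. Clec4f and Timd4 were the members not called, with log2 ratios of 0.04 (-0.15 to 0.23) and -0.33 (-1.38 to 0.64).

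Gpnmb had 14 counts with corn oil, 843 with CCl4 and 232 with CCl4 plus JT003. The CCl4 library was 43.8-fold above corn oil, a log2 ratio of 5.45 (4.87 to 6.50), and CCl4 plus JT003 was lower than CCl4 by a log2 ratio of -1.86 (-2.09 to -1.66). Trem2 had 6, 193 and 105 counts in the same order. It rose with CCl4 by a log2 ratio of 4.36 (3.57 to 6.18), and its ratio of CCl4 plus JT003 over CCl4 was -0.88 (-1.25 to -0.54), which was not called.

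Lgals3 had 41 counts with corn oil, 485 with CCl4 and 234 with CCl4 plus JT003, and was called in each step, with log2 ratios of 3.22 (2.81 to 3.77) and -1.06 (-1.29 to -0.83). Itgax had 12, 78 and 59 counts, rose with CCl4 by 2.25 (1.53 to 3.42), and gave -0.40 (-0.93 to 0.09) with JT003.

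Spp1 did not share the lower values of Gpnmb and Lgals3 in the CCl4 plus JT003 library. It had 582 counts with corn oil, 2597 with CCl4 and 2623 with CCl4 plus JT003. The log2 ratio was 1.87 for CCl4 over corn oil, with a lower limit of 1.74, and 0.00 (-0.08 to 0.08) for CCl4 plus JT003 over CCl4, so a 2-fold difference between those libraries lay outside the counting interval. Bile duct epithelium also makes osteopontin, and the summed counts of 7 cholangiocyte markers were 292 with corn oil, 770 with CCl4 and 503 with CCl4 plus JT003. The sum was thus higher with CCl4, as Spp1 was. It was lower with JT003 mostly through Sox9, which was called lower, from 440 to 207 counts. Of these 7 genes, 4 were called higher in CCl4 over corn oil. In CCl4 plus JT003 over CCl4, 5 had lower and 2 higher values (median log2 ratio -0.33), and Epcam had 109 and 121 counts with CCl4 and CCl4 plus JT003. Against the remaining pooled CCl4 counts described below, 5 had higher and 2 lower values (median 0.17). Their part in the Spp1 values was not tested.

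In CCl4 plus JT003 over CCl4, 2 members were called higher and 2 lower, beside 4.42% of all genes tested (1.91% higher and 2.51% lower). The members called higher were the Kupffer cell markers Marco and Timd4. Marco had 41 counts with corn oil, 161 with CCl4 and 1252 with CCl4 plus JT003, a log2 ratio of 2.93 (2.71 to 3.19) over CCl4. Timd4 had 19, 18 and 56 counts, with a ratio of 1.53 (0.84 to 2.48).

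Clec4f, the third Kupffer cell marker, had 413 counts with corn oil, 517 with CCl4 and 852 with CCl4 plus JT003. Its log2 ratio over CCl4 was 0.71 (0.55 to 0.87), above 0 but not called. The general markers gave lower values instead, at -0.35 (-0.67 to -0.03) for Adgre1 and -0.60 (-0.87 to -0.34) for Cd68, and neither was called. Over corn oil, 8 of the 10 members were called higher in the CCl4 plus JT003 library, beside 4.95% of all genes tested (3.23% higher and 1.72% lower), Gpnmb at 3.59 (2.98 to 4.65) and Trem2 at 3.48 (2.66 to 5.31) among them. With the same assumed variation of 0.2, 1 member, Marco, was called in CCl4 plus JT003 over CCl4, beside 165 of all genes. With 0.4, 1 member, Gpnmb, was called in CCl4 over corn oil, beside 59 genes.

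The corn oil library itself was low in macrophage transcripts. Against the SD library, the other control, 6 of the 10 members were called lower and 0 higher, beside 5.42% of all genes tested (2.18% higher and 3.24% lower). Adgre1 had 24 counts with corn oil and 290 with SD, a log2 ratio of -3.35 (-4.11 to -2.84). Marco was at -2.64 (-3.21 to -2.22), Timd4 at -2.27 (-3.17 to -1.67), Cd68 at -1.69 (-2.16 to -1.30), Clec4f at -1.63 (-1.79 to -1.47) and Lgals3 at -1.36 (-1.95 to -0.88). Of the 15 other pan-macrophage genes, 11 were also called lower and 0 higher. Genes of other tissues also set the corn oil library apart. Counts with SD and corn oil were 2 and 175 for the adipocyte gene Cfd, 6 and 118 for Msln and 3 and 76 for Upk3b, which are mesothelial genes, and 31 and 165 for Acta2, smooth muscle actin, all called higher. The 6 sinusoidal endothelial genes had a median log2 ratio of -0.73, with 1 called lower, Kdr, from 1042 to 320 counts. Their part in the marker values was not tested. The controls belong to different models, with chow feeding in one and oil injections in the other, and the cause of the difference was not tested.

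The choice of control therefore decided the direction of some markers in the CCl4 library. Over SD in place of corn oil, the 5 scar-associated markers were still called higher, with a median log2 ratio of 2.53, and Gpnmb was at 4.43 (4.01 to 5.05). The 3 Kupffer cell markers were instead called lower, Clec4f at -1.62 (-1.77 to -1.48), Timd4 at -2.64 (-3.59 to -2.05) and Marco at -1.03 (-1.33 to -0.76). Adgre1 was at -0.76 (-1.04 to -0.50). Of all genes tested, 9.22% were called in this comparison (5.21% higher and 4.01% lower). For the CCl4 plus JT003 library over SD, 5 members were called higher and 2 lower, beside 10.3% of all genes tested (5.06% higher and 5.29% lower). The members called lower were Adgre1 at -1.12 (-1.42 to -0.84) and Timd4 at -1.13 (-1.65 to -0.68), and Marco was called higher at 1.89 (1.71 to 2.09).

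The fixed lists gave a similar contrast. Of 15 other pan-macrophage genes, 12 were called higher and 1 lower in CCl4 over corn oil (median 1.45), Laptm5, a lysosomal protein of blood cells, with 137 and 671 counts and Lyz2, lysozyme, with 225 and 1049. Over SD, 0 of these 15 genes were called higher and 2 lower (median 0.02). Of 11 other Kupffer cell genes, 1 was called higher and 1 lower over corn oil (median 0.17). Over SD, 0 of the 11 were called higher and 3 lower (median -0.89). Of 18 other scar- and lipid-associated genes, 6 were called higher and 1 lower over SD (median 0.63). Over corn oil, 9 of the 18 were called higher and 0 lower (median 1.30). Cd63, a tetraspanin of lysosomes, rose from 114 to 1154 counts, and Mmp12 had 0 counts with corn oil, which allows up to 3, and 175 with CCl4. Of 12 monocyte genes, 2 were called higher over SD (median 0.51) and 3 over corn oil (median 0.98), among them Cx3cr1, with 20 and 118 counts.

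In CCl4 plus JT003 over CCl4, 3 of the 18 other scar- and lipid-associated genes were called lower and 0 higher (median -0.51). Mmp12 fell from 175 to 47 counts and Cd63 from 1154 to 509. Of the 15 other pan-macrophage genes, 2 were called higher and 0 lower (median 0.34), and of the 11 other Kupffer cell genes 1 was called higher and 0 lower (median 0.74), Clec1b, a C-type lectin receptor, with 76 and 178 counts. Other cell types had higher medians in the same comparison as well, 0.70 for 6 sinusoidal endothelial genes (0 called) and 0.99 for 9 T, NK and B cell genes (1 called higher). Of 7 dendritic cell genes, 2 were called higher, Clec9a from 25 to 97 counts and Xcr1 from 27 to 67, with a median of -0.01. The mitosis list, 6 genes of dividing cells, moved with these markers, its summed counts being 132 in corn oil, 4146 in CCl4 and 416 where JT003 was added. The part of these lists in the marker values was not tested.

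**Figure D3:**
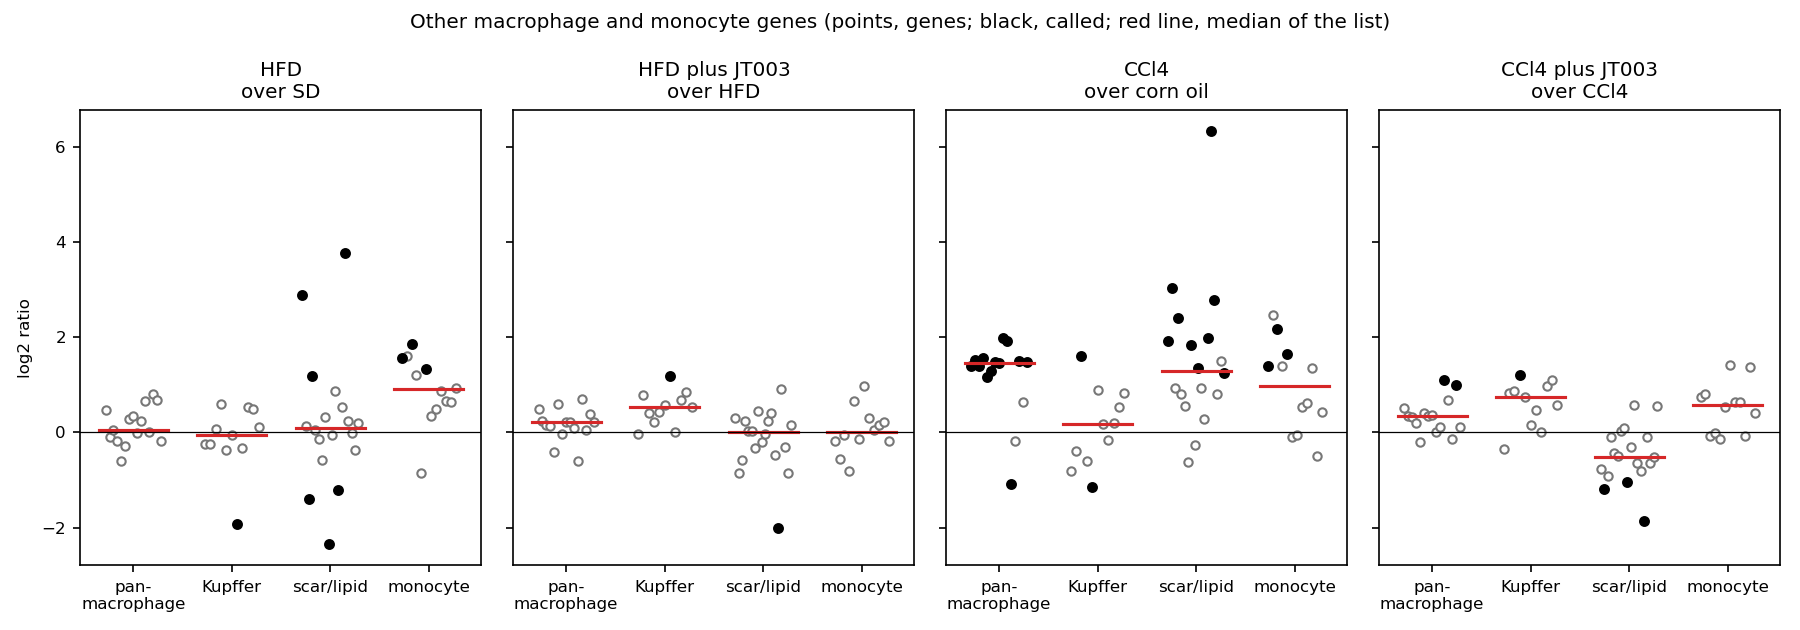
Log2 ratios (y axis) of the genes of 4 fixed lists (x axis: other pan-macrophage, Kupffer cell, scar- and lipid-associated, and monocyte genes) in the 4 main comparisons. Points are genes, black points were called and red lines are medians. The other pan-macrophage genes had a median of 1.45 in CCl4 over corn oil and 0.06 in HFD over SD.

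The balance of the marker sets was also taken within each library, which does not depend on how libraries are scaled to each other. The mean log2(FPKM + 0.1) of the 5 scar-associated markers minus that of the 3 Kupffer cell markers was -2.34 (-2.58 to -2.10) with SD, -0.94 (-1.12 to -0.76) with HFD and -2.69 (-2.90 to -2.48) with HFD plus JT003. It was -0.84 (-1.27 to -0.41) with corn oil, 1.97 (1.71 to 2.22) with CCl4 and -0.54 (-0.71 to -0.37) with CCl4 plus JT003. The balance was thus higher in each injury library than in its control and lower again in each JT003 library. From CCl4 to CCl4 plus JT003, the scar-associated mean fell from 3.46 to 2.70, so the larger part of the drop lay on the Kupffer side. Summed Kupffer FPKM rose there from 15.1 to 52.0, and Marco from 161 to 1252 counts. From HFD to HFD plus JT003, the scar-associated mean fell from 1.85 to 0.89 and the Kupffer mean rose from 2.79 to 3.57. The remaining pooled CCl4 counts described below gave 0.76 in place of 1.97. The CCl4 library alone had a value above 0 by this formula. On summed FPKM, corn oil at 1.17 and CCl4 plus JT003 at 1.12 were also above 0, and without Marco CCl4 plus JT003 was at 0.35. For every 100 counts of Clec4f, Gpnmb had 2.33 with SD, 9.82 with HFD, 1.54 with HFD plus JT003, 3.39 with corn oil, 163 with CCl4 and 27.2 with CCl4 plus JT003.

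**Figure D4:**
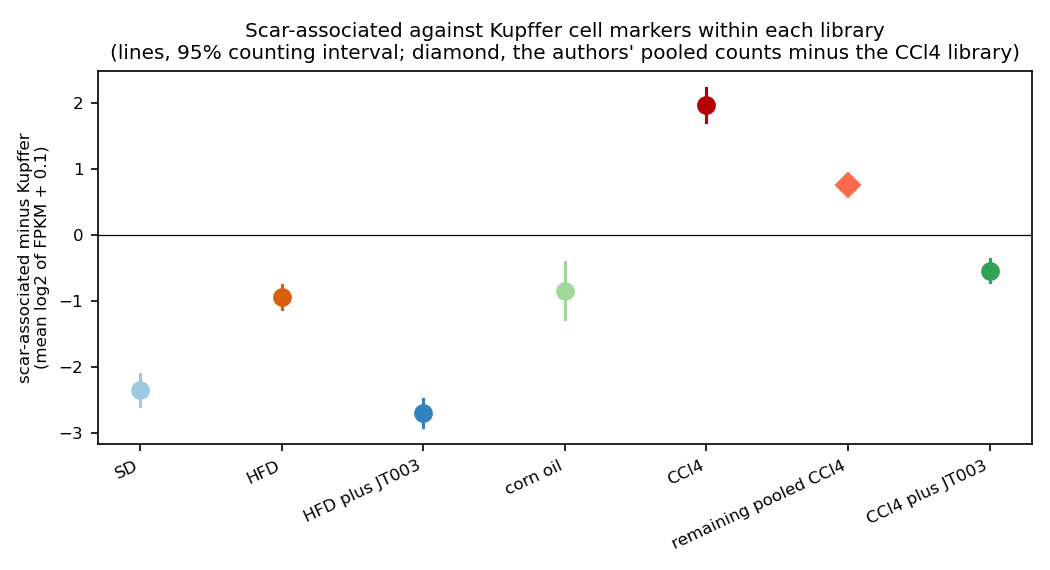
Mean log2(FPKM + 0.1) of the scar-associated markers minus that of the Kupffer cell markers (y axis) within each library (x axis), with lines for 95% counting intervals. The diamond is the authors' pooled CCl4 counts minus the CCl4 library and has no interval. The value was -2.34 with SD and -0.94 with HFD, and was highest, at 1.97, with CCl4.

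A further set of CCl4 counts could be read from a pooled column of the authors, which summed to 2.97 times the CCl4 library. Subtracting the CCl4 library left 39780549 remaining pooled counts, and the samples behind them were not stated, so they are set beside the library as the authors' values. Against corn oil, 9 of the 10 members were called higher in the remaining counts, beside 9.84% of all genes tested (7.20% higher and 2.64% lower), and Clec4f was not called, at 0.60 (0.45 to 0.76).

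The markers differed in how near the CCl4 library lay to the remaining counts. In the CCl4 library over the remaining counts, Marco was at -2.58 (-2.83 to -2.36) and Timd4 at -1.83 (-2.70 to -1.19), and these were the 2 of 10 members called, beside 1.67% of all genes (0.229% higher and 1.44% lower). After scaling to CPM (counts relative to a common library size), Marco had 7.80 CPM in the CCl4 library, 47.0 in the remaining counts and 60.6 with CCl4 plus JT003. The 5 scar-associated markers were not called between the CCl4 library and the remaining counts, with Gpnmb at -0.87 (-0.98 to -0.76).

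Once the remaining counts replaced the CCl4 library, the rise of Marco and Timd4 with JT003 was no longer called. Marco was at 0.37 (0.27 to 0.47) and Timd4 at -0.26 (-0.74 to 0.20). Of the 10 members, 5 were called lower instead, beside 4.64% of all genes tested (1.31% higher and 3.33% lower), Gpnmb at -2.72 (-2.93 to -2.54), Trem2 at -1.59 (-1.91 to -1.30), Lgals3 at -1.54 (-1.75 to -1.34), Adgre1 at -1.21 (-1.48 to -0.96) and Cd68 at -1.06 (-1.30 to -0.84). Spp1 was at 0.06 (-0.01 to 0.13). The values that were lower with JT003 against either set of CCl4 counts were thus those of Gpnmb and Lgals3 among called members, and Spp1 was not lower against either.

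**Figure D5:**
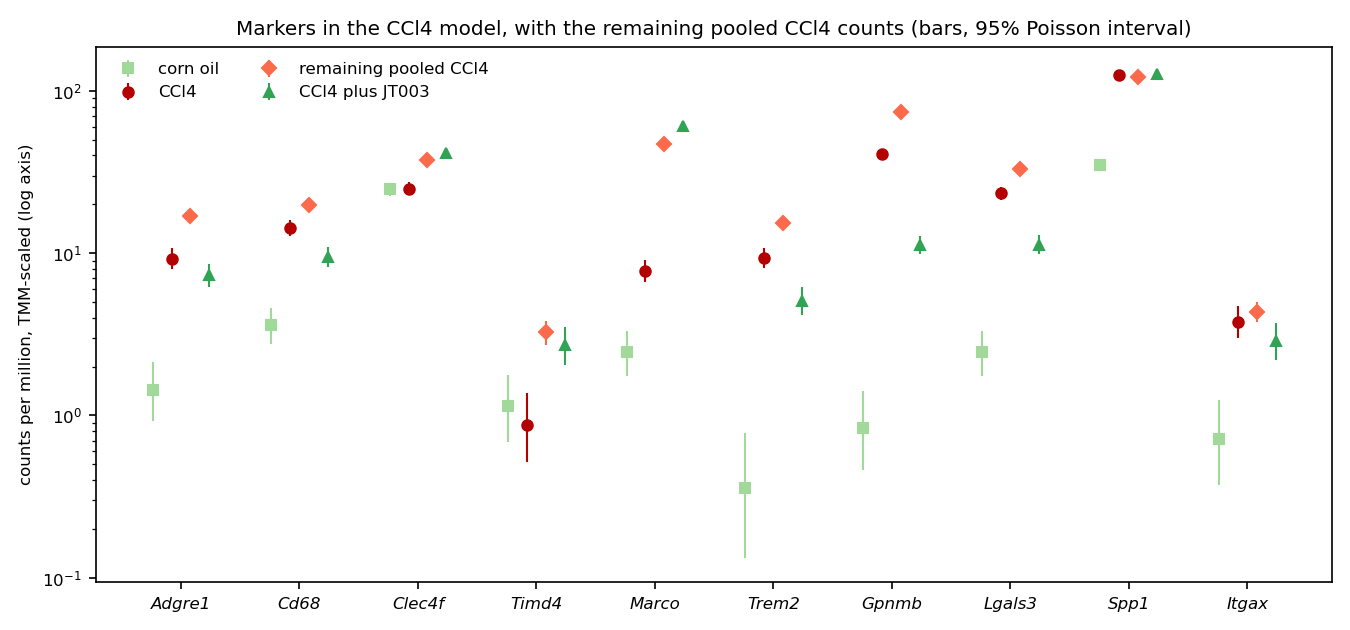
TMM-scaled CPM (y axis, log scale) of the 10 markers (x axis) with corn oil, CCl4, the remaining pooled CCl4 counts and CCl4 plus JT003, with bars for 95% Poisson intervals. Marco differed between the CCl4 library, at 7.80, and the remaining counts, at 47.0, while Spp1 lay at 126 and 122.

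Over the 6 libraries, the members fell into patterns that followed their names in part. Across the libraries, on log2 CPM, the Pearson correlation of Trem2 was 0.983 with Gpnmb, 0.964 with Lgals3, 0.879 with Itgax and 0.795 with Spp1, and that of Clec4f was 0.990 with Timd4 and 0.387 with Marco. Trem2 and Clec4f had a correlation of -0.233. Adgre1 had 0.830 with Clec4f and 0.298 with Trem2, whereas Cd68 had 0.515 and 0.650. These are descriptions over 6 points that share controls and models.

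Among 11661 genes with at least 50 counts in a library, the 5 closest to Trem2 were Myef2 (0.987), Gpnmb (0.983), Tmem43 (0.982), Aim1l (0.982) and Ggh (0.982). The 5 closest to Clec4f were Synj1 (1.000), Atp1b3 (0.995), Cnot2 (0.992), Snrk (0.992) and Sox6 (0.992). Gpnmb was thus the 1 member among the genes closest to Trem2.

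The order of the libraries differed by marker. For Gpnmb the order was CCl4, CCl4 plus JT003 and HFD, and the SD, HFD plus JT003 and corn oil libraries had overlapping neighbouring intervals at 0.43, 0.45 and 0.19 FPKM. For Cd68 the 5 libraries other than corn oil, from 8.67 to 11.69 FPKM, each overlapped with the next. For Marco the CCl4 plus JT003 library was highest at 32.45 FPKM, followed by HFD plus JT003 at 7.93 and SD at 7.35, which overlapped.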

How the data were processed

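Liver RNA was sequenced on the BGISEQ-500, and the submitters' processing notes name mm9, HISAT, Bowtie2 and RSEM without role or version. For each library the authors deposited expected counts per gene, which need not be whole and were rounded here, and FPKM values, which the authors normalized to transcript length and library total. The authors also deposited 4 comparison tables with fold changes and p-values, which were not used; of their 8 expression columns, 1 (pooled CCl4 expected counts) was used and 7 were not. The members and lists were chosen with earlier results of these data known.

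TMM factors (edgeR 4.0.16, R 4.3.3) were computed within each model, from its 3 libraries, or from all 6 where SD was compared with the CCl4 model. Comparisons with the remaining pooled counts used separate factors, from genes with a pooled count. These came from corn oil, CCl4 plus JT003 and the remaining counts, or from the CCl4 library and the remaining counts alone. For each gene with a count in either library, a binomial test conditional on the summed count (two-sided, exact) was run, and adjusted by Benjamini-Hochberg over all such genes (scipy 1.17.1). Calls needed an adjusted p under 0.001 and an absolute log2 ratio of 1 or more, with a prior count of 2. Intervals are Clopper-Pearson or exact Poisson at 95%. The procedure was tested on simulated Poisson counts. These hold no spread between animals, so they cannot show how the calls fare with such spread. All members are named, and from each list the 2 largest called rises and falls with 50 or more counts in the library where they were higher. Other genes of the lists are named where a result turns on them. Depths of 19374236 to 20184557 counts leave genes under 50 counts imprecise. The alternatives are given in the closing section. The SD library as control for the CCl4 model, the remaining pooled counts within libraries and over the CCl4 library, and the scaling to pan-macrophage genes were added after seeing the data.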

Additional observations from a re-analysis of the deposited data

Results flagged for a closer look

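For 3 members, the counting intervals excluded 0 in the diet model and in the CCl4 model with opposite signs. Marco had a log2 ratio of injury over control of -0.83 with HFD over SD and 1.64 with CCl4 over corn oil. Adgre1 had a log2 ratio of JT003 over injury of 0.61 in the diet model and -0.35 in the CCl4 model. Spp1 had a log2 ratio of JT003 over control of -0.22 in the diet model and 1.87 in the CCl4 model. The differences between the models were not tested, since each condition had 1 library. The Marco and Spp1 values of the CCl4 model rest on the corn oil library; over SD in its place Marco was at -1.03 with CCl4 and Spp1 at 2.53 with CCl4 plus JT003.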

How the results depend on the processing

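With 1 library per condition no library could be left out. No paired analysis was possible because each condition had 1 library. Counts of members called moved with the assumed spread and with the fold threshold. Each comparison between 2 of the 6 libraries tested 16973 to 17393 genes, and those with the remaining pooled counts tested 17270 to 17554. With an assumed coefficient of variation of 0.2 the counts were 0 in HFD over SD, 0 in HFD plus JT003 over HFD, 1 in CCl4 plus JT003 over CCl4, 5 in CCl4 plus JT003 over corn oil and 2 in corn oil over SD. These stood beside 179, 19, 165, 138 and 105 of all genes. In CCl4 over corn oil the count with 0.2 stayed within 1.5 times of the 8 members called. With 0.4 they were 0 in each of the comparisons listed for 0.2, beside 11, 0, 0, 24 and 6 genes. In CCl4 over corn oil 1 member was called with 0.4, beside 59 genes, so at 0.4 most calls held only for the libraries compared. Without the log2 threshold the counts were 4, 7, 7 and 3 in HFD over SD, HFD plus JT003 over HFD, CCl4 plus JT003 over CCl4 and HFD plus JT003 over SD, beside 3967, 2422, 4180 and 4544 of all genes. With a fold of 1.5 they were 4, 6, 7 and 2, beside 1877, 748, 1849 and 2261 genes. On log2(FPKM + 1) they were 1, 1 and 2 in the first 3 of these comparisons, beside 632, 244 and 496 genes. An adjusted p of 0.05 gave 1 in HFD plus JT003 over SD, beside 1330 genes. Scaling to the pan-macrophage genes gave 4 in CCl4 plus JT003 over corn oil, beside 8469 of 17338 genes tested. DESeq2 size factors, prior counts of 0.5 and a filter of 10 counts left each count within 1.5 times. The causes were not tested.

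The scar-associated minus Kupffer values for SD, HFD, HFD plus JT003, corn oil, CCl4 and CCl4 plus JT003 were -3.85, -2.10, -4.10, -2.55, 0.73 and -1.98 without Spp1 and Lgals3, and -0.98, -0.11, -1.57, 1.17, 3.09 and 1.12 on summed FPKM, where Spp1 outweighs the rest. A pseudocount of 1 gave -1.64, -0.74, -2.04, -0.30 and 1.59 for the first 5 libraries. Without Marco, HFD was at -1.24, HFD plus JT003 at -2.97, CCl4 at 2.24 and CCl4 plus JT003 at 0.35, so that Marco decided the side of 0 in the last. The pooled CCl4 counts gave 0.98 and the remaining counts 0.76.

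Some log2 ratios changed sign close to 0, but a change of control or of CCl4 counts gave larger reversals. Scaled to pan-macrophage genes, Adgre1 was at -0.04, Cd68 at -0.16 in HFD over SD and -0.26 in HFD plus JT003 over SD, Clec4f at -0.84 in CCl4 and -0.47 in CCl4 plus JT003 over corn oil, and Gpnmb at 0.01 and Itgax at 0.59 in corn oil over SD. By total reads or FPKM, Clec4f was at 0.08 in HFD over SD, and in HFD plus JT003 over SD Marco was at 0.11 or 0.10, Gpnmb at 0.06, 0.05 or 0.02 and Lgals3 at 0.13 or 0.11. Over SD in place of corn oil, CCl4 gave Adgre1 -0.76, Clec4f -1.62 and Marco -1.03, against 2.62, 0.04 and 1.64 over corn oil. In the same way, CCl4 plus JT003 gave Adgre1 -1.12, Cd68 -0.34, Clec4f -0.92 and Timd4 -1.13, against 2.27, 1.38, 0.74 and 1.19. With pooled CCl4 counts, Timd4 over corn oil was at 1.10 and with the remaining counts at 1.46, against -0.33 for the CCl4 library. In CCl4 plus JT003 over the remaining counts Timd4 was at -0.26, against 1.53 over the CCl4 library.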
